A study of Canis lupus familiaris with 2 samples.

Results

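The mitochondrial respiratory chain passes electrons from NADH and succinate to oxygen through complexes I to IV and pumps protons across the inner membrane, and ATP synthase uses the proton gradient to make ATP. Most subunits are encoded in the nucleus and imported, and they have to be made in matching amounts with the few subunits encoded in mitochondrial DNA. Kidney tubule epithelium is known for its dependence on this pathway, since sodium pumping consumes much ATP. The nuclear-encoded genes of the chain were selected by symbol, as all rows beginning with NDUF, UQCR, COX followed by a number from 4 to 8, or ATP5, together with SDHA, SDHB, SDHC and SDHD. This gave 75 of the 23510 rows. They fell into 36 complex I genes, 4 complex II genes, 7 complex III genes, 9 complex IV genes, 10 ATP synthase genes and 7 complex I assembly factors of the NDUFAF series. The remaining 2, ATP5S and ATP5SL, carry ATP5 symbols without being subunits of the enzyme.

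The cells were MDCK, an established canine kidney epithelial line that forms a columnar sheet. They were grown on culture inserts in EMEM with 10% serum. In 1 culture the medium on the semipermeable membrane stood 2 cm high (2 cmH2O, which the labels call no pressure), and in the other it stood 50 cm high (50 cmH2O, the pressure load). The labels place both at day 3. With 1 library per height, no value below has a replicate or an error, no test was possible, and medium height cannot be told apart from anything else that differed between the libraries. Values are FPKM as the authors deposited them, that is, sequenced fragments corrected for transcript length and for the size of the library. FPKM is relative to the rest of the library, so RNA per cell was not measured, and a change in all cells cannot be told apart from a change in some of them. Of the 5 epithelium markers, 2 were higher and 3 lower at 50 cm. CDH1 had 211.5 FPKM at 2 cm and 228.9 FPKM at 50 cm, TJP1 had 50.5 and 52.3 FPKM, EPCAM had 252.8 and 215.5 FPKM (ratio 0.852), and the keratins KRT8 and KRT18 had ratios of 0.952 and 0.944. PAX8, a kidney transcription factor, had 65.1 and 57.6 FPKM. CDH16, a kidney cadherin, was low, at 1.96 and 0.676 FPKM. Of the markers of connective tissue and blood cells, COL1A1, COL1A2 and PDGFRA were at or under 0.25 FPKM, and DCN, PTPRC and CD3E were listed at 0 in both cultures.

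The respiratory chain genes were nearly level between the cultures. Ratios are 50-cm over 2-cm FPKM, computed for rows above 1 FPKM in both cultures, which 61 of the 66 subunit genes passed, against 11057 rows in all. The median subunit had a ratio of 1.015 (0.02 on the log2 scale), beside a median of 0.01 over all features that passed. In 50-cm-high medium 40 subunits were higher and 21 were lower. Of all features, 52.6% were higher, so the subunits' share of 65.6% was above the background. Subunit genes are abundant, however, and abundant features leaned upward as a whole. Among the 1946 features above 50 FPKM in both cultures 65.7% were higher, and among the 57 subunits above 50 FPKM the share was 66.7%. The split also depended on scaling. When the cultures were scaled to the same summed FPKM, 30 of 61 subunits were higher, beside 47.1% of all features. After quantile normalization 24 were higher, beside 52.0% of all features.

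Few subunits moved by even a small fold. Of the 61 selected subunits, NDUFAB1 and NDUFV3 were the only ones more than 1.2-fold higher at 50 cm, against 15.0% of all features. NDUFA2 was the only one more than 1.2-fold lower, against 16.9% of all features. Among features above 50 FPKM, 14.1% were more than 1.2-fold higher and 5.24% more than 1.2-fold lower. CYC1, a complex III subunit outside the selection by symbol, was also more than 1.2-fold higher (ratio 1.26). None of the 61 was 2-fold higher (background 0.389%) or 2-fold lower (background 1.28%), and none passed 1.5-fold. The 58 subunits within 1.2-fold were 95.1% of those that passed, compared with 80.7% of the features above 50 FPKM and 68.1% of all features. The SD of the log2 ratio across subunits was 0.127, compared with 0.223 for features above 50 FPKM. As a yardstick for single genes, each ratio was also compared with those of its neighbours, the 500 features closest to it in expression. The unit, called a deviation here, was their scaled median absolute deviation, a spread across genes and not a replicate error. Of the 61 subunits, 50 lay within 1 such deviation of the median of their neighbours and 60 within 2, with NDUFA2 as the exception. The share of all features within these limits was not computed, so the counts do not show that subunits were closer than other genes. Only 18 of the 61 lay above the median of their neighbours, so most subunits were lower than genes of like level. For 58 of the 61, that median log2 ratio was between 0.06 and 0.09. Of the 40 subunits that were higher at 50 cm, 22 lay under the median of their neighbours. Above 50 FPKM, the median log2 ratio was 0.03 for subunits and 0.06 for all features.

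**Figure D1:**
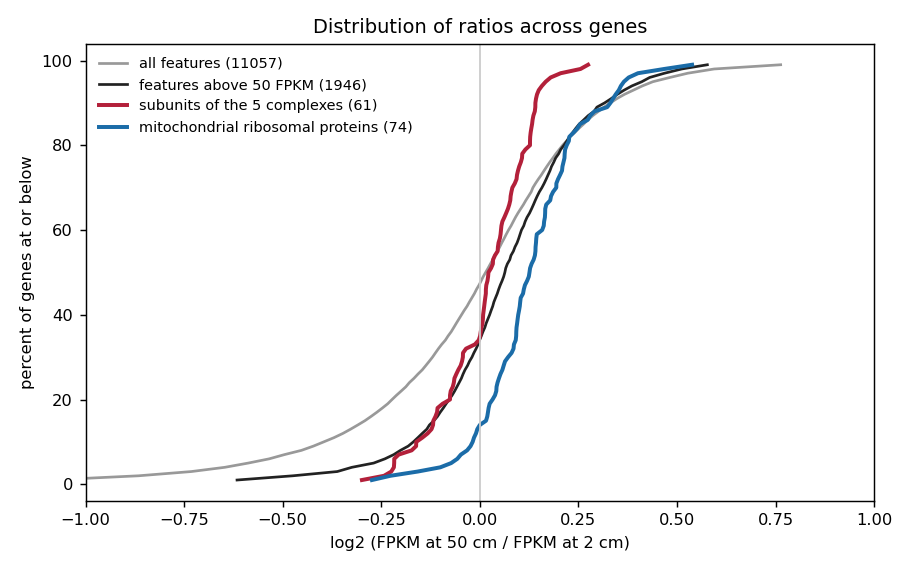
Percent of genes (vertical axis) at or below each log2 ratio of 50-cm over 2-cm FPKM (horizontal axis), from the 1st to the 99th percentile and drawn between -1 and 1, for all features above 1 FPKM, features above 50 FPKM, subunits and mitochondrial ribosomal proteins. The 61 subunits have the smallest SD of these sets, 0.127, and the curve of the 74 ribosomal protein genes lies to the right of theirs, with a median of 0.13.

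In level, the subunits stood well above the ordinary gene. Their median was 146.1 FPKM at 2 cm and 146.4 FPKM at 50 cm, where the median over all features that passed was 16.2 and 16.3 FPKM. The 66 subunit genes summed to 11960 FPKM at 2 cm and 12187 FPKM at 50 cm, which was 1.99% and 1.98% of the summed FPKM of the whole table. Complex I took 0.845% and 0.827% of the total, ATP synthase 0.496% and 0.506%, complex IV 0.320% and 0.314%, complex III 0.248% and 0.260%, and complex II 0.083% and 0.079%. The share of the selected subunit genes in the summed FPKM was therefore almost equal in the cultures. Selected genes of complex III and ATP synthase took slightly more at 50 cm, and those of complexes I, II and IV slightly less. Mitochondrially encoded subunits, CYC1 and subunits without a row under these symbols are not in the sums, so these are not shares of whole complexes. Across subunits, log2 FPKM in the cultures had a Pearson r of 0.996 (61 genes that share both libraries, a description only).

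**Figure D2:**
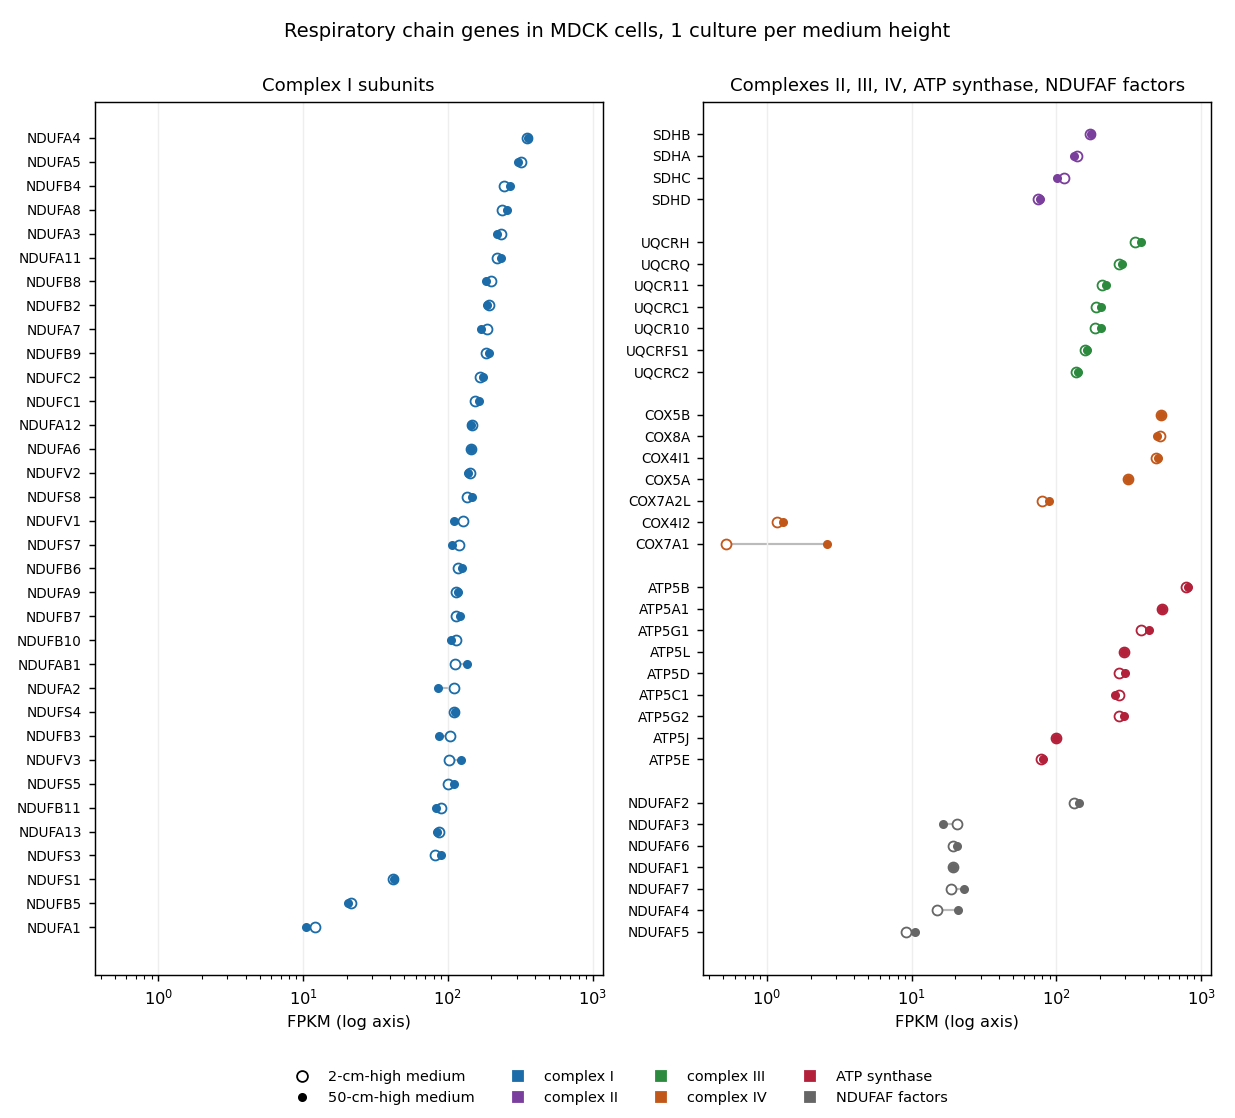
FPKM (log axis) of the respiratory chain genes above 0 FPKM that are reported here, with 1 culture per medium height, open circles for 2-cm-high and filled circles for 50-cm-high medium, ordered by level within each complex and coloured by complex. The circles of most genes overlap, and the widest gap is that of COX7A1, at 0.523 and 2.58 FPKM.

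Complex I takes electrons from NADH, and its L-shaped body is built from a matrix arm that holds the redox centres and a membrane arm that pumps protons. Of its 36 genes 35 passed, 18 of them higher and 17 lower at 50 cm. The median log2 ratio was 0.02 and the quartiles were -0.11 and 0.09. The sign of this median was not stable, since it came to -0.02 after scaling to equal sums, with 14 genes higher, and to -0.07 after quantile normalization, with 11 genes higher. The summed FPKM of the complex was 5072 at 2 cm and 5077 at 50 cm. Complex I had the widest range of log2 ratios among the complexes, from -0.37 to 0.28. It also had the most genes, which by itself widens a range. Its SD was 0.147, beside 0.043 to 0.094 for the other complexes.

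The 7 nuclear-encoded core subunits carry the flavin and the iron-sulfur clusters and were mixed in direction, with 3 higher and 4 lower and a median log2 ratio of -0.05. NDUFV1, which binds the flavin and oxidizes NADH, had 127.9 FPKM at 2 cm and 109.9 FPKM at 50 cm (ratio 0.859). NDUFS7, an iron-sulfur subunit near the ubiquinone site, had 119.7 and 106.9 FPKM (ratio 0.894). NDUFV2, the iron-sulfur partner of NDUFV1, had 142.5 and 137.9 FPKM (ratio 0.968). Other core subunits were level or higher at 50 cm. NDUFS1, the largest iron-sulfur subunit, had 42.0 and 42.6 FPKM, NDUFS8 had 135.9 and 146.4 FPKM (ratio 1.08), and NDUFS3 had 81.5 and 89.8 FPKM (ratio 1.10). No core subunit differed by as much as 1.2-fold, and NDUFV1 lay 1.7 deviations under the median of its neighbours in expression.

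The accessory subunits, which surround the core and are needed for its stability, held the extremes. NDUFA2, a small subunit of the matrix arm, had 111.1 FPKM at 2 cm and 85.8 FPKM at 50 cm. Its ratio of 0.772 was the lowest of all subunits and lay 2.3 deviations under the median of its 500 neighbours, of which 3.8% had a lower ratio. NDUFB3, of the membrane arm, had 103.9 and 87.5 FPKM (ratio 0.841). NDUFA1 came next on the low side with a ratio of 0.860, followed by NDUFA7 (0.910), NDUFB10 (0.921), NDUFB8 (0.921), NDUFB11 (0.927) and NDUFA3 (0.929). At the other end stood NDUFAB1, the mitochondrial acyl carrier protein, which also serves fatty acid and lipoic acid synthesis. It had 112.1 FPKM at 2 cm and 136.0 FPKM at 50 cm (ratio 1.21). NDUFV3 had 101.7 and 122.8 FPKM (ratio 1.21). Next came NDUFB4, with 244.4 and 269.9 FPKM (ratio 1.10), NDUFA8 (ratio 1.096) and NDUFS5 (ratio 1.09). NDUFAB1 and NDUFV3 lay 1.05 and 0.98 deviations above their neighbours. The 11 accessory genes NDUFA6, NDUFA9, NDUFA11, NDUFA13, NDUFB2, NDUFB6, NDUFB7, NDUFB9, NDUFC1, NDUFC2 and NDUFS4 had ratios between 0.971 and 1.08, at 86.8 to 217.4 FPKM at 2 cm.

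By symbol series, the 13 NDUFA genes that passed had a median log2 ratio of -0.01 (6 higher), the 10 NDUFB genes -0.05 (4 higher), the 7 NDUFS genes 0.02 (5 higher), the 3 NDUFV genes -0.05 (1 higher) and the 2 NDUFC genes 0.08 (both higher). The most abundant was NDUFA4, at 353.2 and 356.9 FPKM. Although NDUFA4 has a complex I symbol, its protein is now known as a subunit of complex IV. Counting it there gave medians of 0.005 for complex I and 0.02 for complex IV. The next highest was NDUFA5, at 320.6 and 306.0 FPKM. Low levels stood out in NDUFB5, at 21.4 and 20.6 FPKM, and in NDUFA1, at 12.1 and 10.4 FPKM (ratio 0.860). The table holds another row, LOC102154035, whose gene number is that of NDUFA1 in the RefSeq gene table (assembly UU_Cfam_GSD_1.0, used for names only). That row had 155.8 FPKM at 2 cm and 149.1 FPKM at 50 cm (ratio 0.957), so the level of NDUFA1 is uncertain. Locus rows with the gene numbers of NDUFA10 (83.0 and 88.4 FPKM, ratio 1.07) and NDUFS6 (36.6 and 39.2 FPKM, ratio 1.07) were likewise outside the selection by symbol. Adding all 3 left the complex I median at 0.02.

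**Figure D3:**
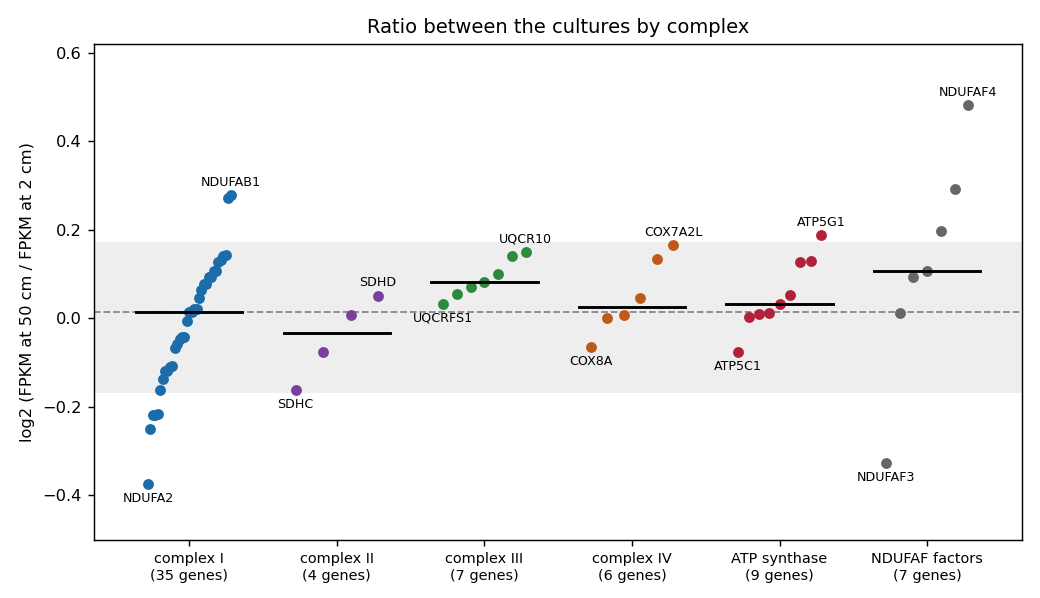
Log2 ratio of 50-cm over 2-cm FPKM for each gene above 1 FPKM in both cultures (points, sorted within each complex), with the median of each complex (black line), and the median (dashed line) and quartiles (grey band) of all 11057 features. Most subunits lie inside the grey band, complex I spans from NDUFA2 at -0.37 to NDUFAB1 at 0.28, and all 7 complex III points lie above 0.

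The NDUFAF assembly factors, which build complex I and leave the finished enzyme, were less abundant and more spread than the subunits. Of the 7, 6 were higher and 1 was lower at 50 cm, with a median log2 ratio of 0.11 and an SD of 0.251, and 2 were more than 1.2-fold higher and 1 more than 1.2-fold lower (15.0% and 16.9% of all features). After scaling to equal sums 5 of 7 were higher, and the median stayed above 0 in the 3 scalings tried (recentring on all features, equal sums and quantile normalization). NDUFAF4 had 14.9 FPKM at 2 cm and 20.8 FPKM at 50 cm. Its ratio of 1.40 was the largest of the genes above 1 FPKM in both cultures in the whole selection, 2.2 deviations above its neighbours. NDUFAF3, which forms a pair with NDUFAF4 in early assembly, had 20.6 and 16.4 FPKM and the lowest ratio of the series, 0.797. The order of these partner genes was thus exchanged, NDUFAF3 being the higher at 2 cm and NDUFAF4 at 50 cm.

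NDUFAF7, a methyltransferase, had 18.7 and 22.9 FPKM (ratio 1.22), and NDUFAF5, which hydroxylates NDUFS7, had 9.19 and 10.5 FPKM (ratio 1.15). Both were higher at 50 cm, whereas NDUFS7 had the lower ratio given above. NDUFAF6 (19.3 and 20.6 FPKM, ratio 1.07) and NDUFAF1 (19.2 and 19.3 FPKM, ratio 1.01), which acts on the membrane arm, were close to level. NDUFAF2, a chaperone related in sequence to the subunit NDUFA12, stood well above the other NDUFAF factors, at 133.1 and 143.4 FPKM (ratio 1.08). NDUFA12 had 146.1 and 145.5 FPKM.

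Complex II, succinate dehydrogenase, is shared by the chain and the tricarboxylic acid cycle and is wholly encoded in the nucleus. Its 4 genes divided evenly, with 2 higher, 2 lower and a median log2 ratio of -0.03. SDHA, the flavoprotein, had 139.1 FPKM at 2 cm and 131.9 FPKM at 50 cm (ratio 0.949), and SDHB, the iron-sulfur subunit, had 171.4 and 172.3 FPKM (ratio 1.01). The membrane anchors went opposite ways. SDHC had 112.0 and 100.2 FPKM (ratio 0.894), and SDHD had 74.9 and 77.6 FPKM (ratio 1.04). The order of levels, SDHB, SDHA, SDHC and SDHD, was kept. With equal sums 1 of the 4 was higher, and after quantile normalization none was and the median was -0.12.

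Complex III carries electrons from ubiquinol to cytochrome c. All 7 of its genes selected by symbol were higher at 50 cm, by small amounts, with a median log2 ratio of 0.08. Their spread was the narrowest among the selected genes of any complex (SD 0.043). CYC1, the cytochrome c1 subunit, lies outside the selection and is not in these values. Its ratio was 1.26, 1.6 deviations above its neighbours. UQCRH, the acidic hinge protein that meets cytochrome c, had 348.8 FPKM at 2 cm and 384.5 FPKM at 50 cm (ratio 1.10). The small subunits UQCR10, UQCR11 and UQCRQ had 183.8 and 204.0 FPKM (ratio 1.11), 207.0 and 219.2 FPKM (ratio 1.06), and 268.7 and 282.2 FPKM (ratio 1.05). The core proteins UQCRC1 and UQCRC2 had ratios of 1.07, from 188.8 to 202.3 FPKM, and 1.04, from 135.8 to 141.2 FPKM. UQCRFS1, the Rieske iron-sulfur protein and a redox subunit, had the smallest ratio, 1.02, from 157.9 to 161.6 FPKM. All 7 remained above 1 after scaling to equal sums and 5 of 7 after quantile normalization, when UQCRC2 and UQCRFS1 were lower and the median was 0.01. None of the 7 selected genes lay more than 0.43 deviations from the median of its neighbours. Of these genes, 4 lay under that median, which was between 0.07 and 0.09.

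Complex IV, cytochrome c oxidase, reduces oxygen to water. Its abundant subunits that had a row were close to level. The general forms COX6A1, COX6B1, COX7A2 and COX7B had no row under these symbols. COX5B had 525.8 FPKM at 2 cm and 526.0 FPKM at 50 cm (ratio 1.0004), and COX5A had 311.4 and 313.0 FPKM (ratio 1.01). COX4I1, the general form of subunit IV, had 484.7 and 500.04 FPKM (ratio 1.03). COX8A had 516.3 and 493.7 FPKM (ratio 0.956). As deposited, it was the only one of the 6 complex IV genes that passed to be lower, and it was lower in each scaling too. In the scalings, COX5A was also lower throughout. COX5B was lower after recentring or with equal sums and higher after quantile normalization. COX7A2L, which joins complex III to complex IV in supercomplexes, had 79.6 and 89.4 FPKM (ratio 1.12). Of the 6 genes that passed, 5 were higher, and 3 after scaling to equal sums. The median log2 ratio was 0.03 as deposited, -0.01 with equal sums and 0.05 after quantile normalization. These values include COX4I2, at 1.17 and 1.29 FPKM. With a minimum of 5 FPKM, which left COX4I2 out, 4 of 5 genes were higher as deposited and the median was 0.007.

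Paralogs used in particular tissues or oxygen states were low or listed at 0. COX4I2, a form of subunit IV induced by low oxygen, had 1.17 FPKM at 2 cm and 1.29 FPKM at 50 cm, far below COX4I1. Its ratio of 1.098 is the one given by an equal number of reads in each library, because 1 read was worth 1.098 times as much FPKM at 50 cm. COX7A1, the heart and skeletal muscle form of subunit VIIa, had 0.523 FPKM at 2 cm and 2.58 FPKM at 50 cm. Being under 1 FPKM at 2 cm it did not pass, and its ratio of 4.94 lay within 0.05% of the ratio given by 9 reads against 2, or a multiple of these. COX6A2, a muscle form, COX7B2 and NDUFA4L2, the hypoxia-induced relative of NDUFA4, were listed at 0 in both cultures. ATP5O, which encodes the stalk subunit OSCP that the enzyme requires, was also listed at 0, so a listed 0 does not show that a transcript was missing.

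ATP synthase consists of the F1 head, in which ATP is made, the c ring, which turns as protons pass, and a peripheral stalk that holds the head still. Of its 10 genes 9 passed, 8 higher and 1 lower, with a median log2 ratio of 0.03. With equal sums 5 of 9 were higher, and after quantile normalization 4 of 9 with a median of 0. ATP5B, the catalytic beta subunit, was the most abundant gene of the chain at 783.6 FPKM at 2 cm and 813.2 FPKM at 50 cm (ratio 1.04), and ATP5A1, the alpha subunit, followed at 532.7 and 536.6 FPKM (ratio 1.01). Of the central stalk, ATP5C1 (gamma) had 269.4 and 255.6 FPKM (ratio 0.949), ATP5D (delta) had 271.5 and 296.9 FPKM (ratio 1.09), and ATP5E (epsilon) had 78.5 and 80.3 FPKM (ratio 1.02). The 5 F1 genes summed to 1936 FPKM at 2 cm and 1983 FPKM at 50 cm.

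The c-ring genes were among those with the larger ratios of the enzyme. ATP5G1 had 384.0 FPKM at 2 cm and 437.4 FPKM at 50 cm (ratio 1.14), and ATP5G2 had 268.9 and 293.7 FPKM (ratio 1.09). These genes and ATP5MC3, listed as LOC478807 with 247.1 and 280.0 FPKM (ratio 1.13), encode the same mature c protein, so how the authors' mapping shared reads among similar stretches could affect each of them. ATP5G1 and ATP5G2 stayed above a ratio of 1 in the 3 scalings tried. ATP5J, of the peripheral stalk, had 99.1 and 99.9 FPKM, and ATP5L, of the membrane part, had 292.7 and 293.3 FPKM, with ratios of 1.009 and 1.002. The genes with ATP5 symbols that are not subunits were weakly expressed. ATP5S, a coupling factor, had 7.63 and 10.4 FPKM (ratio 1.37, 2.1 deviations above its neighbours), and ATP5SL, linked to complex I assembly, had 9.99 and 11.0 FPKM (ratio 1.10).

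Genes that work with the chain but lie outside the selection were compared from lists of known function. Cytochrome c, the mobile carrier between complexes III and IV, had a larger ratio than any subunit that passed. CYCS had 219.1 FPKM at 2 cm and 310.5 FPKM at 50 cm (ratio 1.42, 2.6 deviations above its neighbours). CYC1, the cytochrome c1 subunit of complex III, whose symbol does not match the selection, had 193.9 and 244.7 FPKM (ratio 1.26). Its ratio was above those of all 7 selected complex III genes. By contrast, ATPIF1, the inhibitor of ATP hydrolysis, had 435.2 and 431.6 FPKM (ratio 0.992), and USMG5, a small ATP synthase component, had 377.7 and 393.6 FPKM (ratio 1.04).

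Of 33 assembly factors other than the NDUFAF series, 21 were higher and 12 lower, with a median log2 ratio of 0.11, and 7 were more than 1.2-fold higher and 1 more than 1.2-fold lower. These counts were 63.6% higher, 21.2% more than 1.2-fold higher and 3.03% more than 1.2-fold lower, beside 52.6%, 15.0% and 16.9% of all features. COX15, which makes the heme A of complex IV, had 20.0 and 32.0 FPKM (ratio 1.598), and TIMMDC1, a complex I factor, had 19.9 and 27.9 FPKM (ratio 1.40). LYRM7, which handles the Rieske protein, had 9.08 and 6.29 FPKM (ratio 0.692), and COX20 had 6.14 and 5.14 FPKM (ratio 0.837). The 13 ubiquinone synthesis genes had a median log2 ratio of -0.10, with 6 higher and 7 lower. PDSS1, which makes the isoprenoid tail, had 7.001 and 9.73 FPKM (ratio 1.39), and COQ10B had 12.9 and 16.2 FPKM (ratio 1.26). ADCK4 had 13.7 and 9.82 FPKM (ratio 0.719), and COQ10A had 15.1 and 12.5 FPKM (ratio 0.830).

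Of 14 regulators of respiratory genes and mitochondrial DNA above 1 FPKM, 13 were higher at 50 cm, with a median log2 ratio of 0.12, and 5 were more than 1.2-fold higher. These were 92.9% and 35.7% of the list, beside 52.6% and 15.0% of all features. PPRC1, a coactivator of the PGC-1 family, had 14.5 FPKM at 2 cm and 22.2 FPKM at 50 cm (ratio 1.53, 2.9 deviations above its neighbours). ESRRA, a nuclear receptor that works with PGC-1 proteins, had 46.5 and 63.6 FPKM (ratio 1.37), and PPARGC1B had 3.82 and 4.93 FPKM (ratio 1.29). NRF1, the factor named for respiratory gene promoters, had 13.4 and 14.3 FPKM (ratio 1.06), and TFAM, which packages mitochondrial DNA, had 9.57 and 9.82 FPKM (ratio 1.03). POLRMT, the mitochondrial RNA polymerase, had a ratio of 1.07. MTERF was the only regulator above 1 FPKM that was lower, at 9.99 and 9.13 FPKM (ratio 0.914). PPARGC1A, the PGC-1 alpha gene, was barely detected, at 0.011 FPKM at 2 cm and listed at 0 at 50 cm.

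The 12 tricarboxylic acid cycle genes other than SDH had a median log2 ratio of 0.004, with 6 higher and 6 lower, and this median was below 0 in each of the 3 scalings tried. They ran from IDH3G, with 82.3 and 69.4 FPKM (ratio 0.844), and SUCLA2 (ratio 0.919) to CS, citrate synthase, with 135.1 and 158.2 FPKM (ratio 1.17), and IDH3A, with 58.0 and 81.9 FPKM (ratio 1.41). The mitochondrial ribosomal proteins, which make the mitochondrially encoded subunits, were higher more often. Of 74 genes, 63 were higher at 50 cm (85.1%, beside 52.6% of all features and 65.7% of those above 50 FPKM), with a median log2 ratio of 0.13 that stayed above 0 in each scaling, and their summed FPKM was 4712 at 2 cm and 5165 at 50 cm. The difference between these lists and the subunits was not tested.

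**Figure D4:**
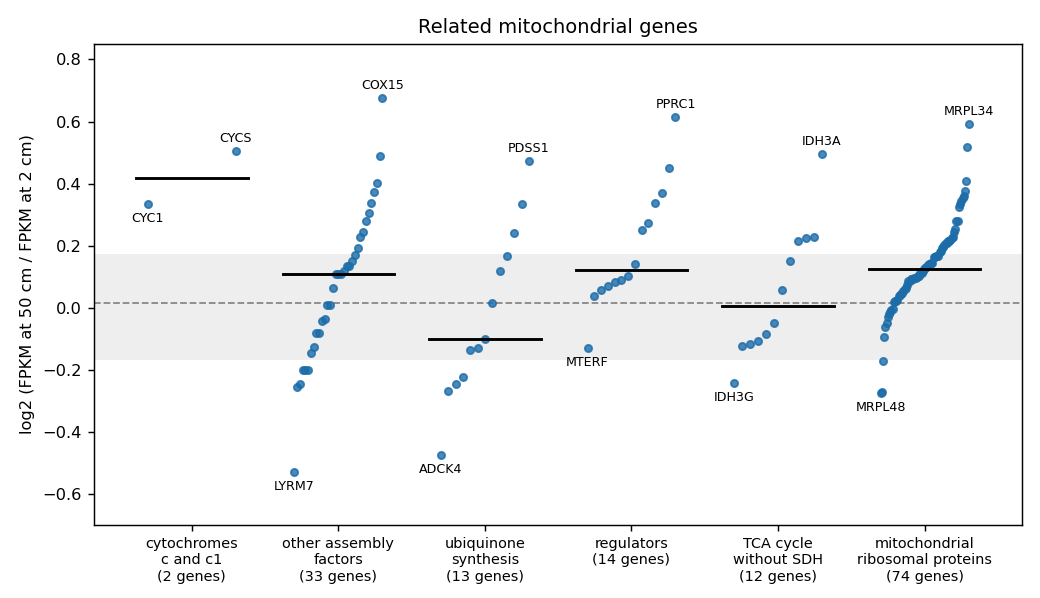
Log2 ratio of 50-cm over 2-cm FPKM for genes that work with the respiratory chain (points, sorted within each list), with list medians (black lines) and the median (dashed line) and quartiles (grey band) of all features. CYC1 and CYCS lie above the band at 0.34 and 0.50, and the ribosomal protein genes have a median of 0.13.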

How the data were processed

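MDCK cells from 1 culture in 2-cm-high and 1 culture in 50-cm-high medium were compared. The authors made stranded mRNA libraries, read 75 bases from a single end, and deposited FPKM values from Cuffnorm 2.2.1. The submitters' processing notes name SAMtools 0.1.19, Bowtie2 2.2.3 and TopHat2 2.0.13 for alignment, and the dog genome build CanFam3.1. The annotation is not given in the sources used here, and how Cuffnorm scaled the libraries is not stated. Read numbers are unknown, so no interval was computed. Low values lay on steps of whole reads: 219 of 574 features under 0.1 FPKM in both cultures had the ratio 1.098 within 0.2%, the value of 1 read in each library.

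Ratios were taken from the FPKM as deposited, without a pseudocount, above 1 FPKM in both cultures, as in the study's methods. With 1 sample per group nothing was tested. Members, lists and folds were chosen with earlier results of these data known. Named were the 3 highest and 3 lowest ratios of each complex, core subunits, paralogs, members at 0, the most abundant members and list extremes. Other members were added for context. Alternatives were FPKM minima of 0, 0.1, 5 and 50, pseudocounts of 0.1 and 1, recentring, equal sums, quantile normalization and other member sets. Mitochondrially encoded subunits, further subunits without a row under these symbols, and planned promoter motifs were not analysed here, and values of 1 complex I gene are not reported here. Of 6440 locus rows, 3740 matched the RefSeq gene table by gene number and 5 named a member, among them ATP5ME, listed at 0 in both cultures. Scripts (Python 3.11.15, numpy 2.4.6, pandas 2.3.3, matplotlib 3.10.9) were tested on simulated data.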

Additional observations from a re-analysis of the deposited data

How the results depend on the processing

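No paired analysis was possible because each medium height had 1 culture, and no culture could be left out for the same reason. With no replicate spread, a median was taken as moved when it changed sign or shifted by more than 0.05 on the log2 scale. The FPKM minima and pseudocounts moved the median of no complex by that much. With equal sums the median log2 ratio was -0.0172 for complex I, -0.0061 for complex IV and -0.0106 for all subunits. After quantile normalization it was -0.0716 for complex I, -0.1174 for complex II, 0.0138 for complex III, 0.0 for ATP synthase, 0.0557 for the NDUFAF factors and -0.0273 for all subunits. Adding assembly factors brought complex II to 0.0082, adding them together with ATP5S and ATP5SL brought ATP synthase to 0.117, and the mean of complex I was -0.013. The number of subunits above a ratio of 1 went from 40 to 24 after quantile normalization, while the share of all features went from 52.6% to 52.0%. Subunits more than 1.2-fold higher numbered 1 after recentring, 0 with equal sums and 1 after quantile normalization, and those lower 2, 2 and 4. At 1.5-fold both counts were 0. Minima of 0 or 0.1 FPKM let COX7A1 in as the 1 subunit past 2-fold. Recentring, equal sums and quantile normalization changed the sign of 7, 11 and 16 of the 70 genes that passed, respectively. Depth limits COX4I2 and COX7A1, whose ratios a few reads can give. The alternatives with locus rows or with NDUFA4 in complex IV were chosen after seeing the data and moved no median.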

Other observations

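Abundant features leaned upward in 50-cm-high medium. The median log2 ratio over all features was 0.01 above 1 FPKM, 0.04 above 5 FPKM and 0.06 above 50 FPKM, and 52.6%, 57.1% and 65.7% of features were higher, respectively. Among subunits that were higher at 50 cm, 8 complex I, 2 complex II, 4 complex III, 3 complex IV and 5 ATP synthase genes lay under the median of their neighbours in expression. Across the 61 subunits, level and ratio had a Pearson r of 0.12 and a Spearman rho of 0.15, a description over genes of the same libraries.

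The mitochondrial ribosomal proteins with the largest ratios were MRPL34, with 31.7 FPKM at 2 cm and 47.8 FPKM at 50 cm (ratio 1.51), and MRPL47, with 30.0 and 42.9 FPKM (ratio 1.43). The smallest were those of MRPL48, with 15.7 and 13.01 FPKM (ratio 0.827), and MRPL2, with 37.1 and 30.7 FPKM (ratio 0.827). Of these 74 genes, 11 were more than 1.2-fold higher (14.9%, close to the 15.0% of all features) and 2 more than 1.2-fold lower (2.70%, beside 16.9%). Among features above 50 FPKM, these shares were 14.1% and 5.24%.

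The order of levels within the complexes was kept to different degrees. None of the 4 complex II genes changed rank, 2 of 7 complex III genes, 2 of 6 complex IV genes and 4 of 9 ATP synthase genes did so by at most 2 places, and 23 of 35 complex I genes did so by up to 9 places.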
